A study of Homo sapiens with 8 samples.

Results

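The genes described here are the chromosome 19 zinc finger genes, the protein-coding genes of human chromosome 19 that carry a numbered ZNF symbol. The count table held 246 such genes, and the 211 with a mean of at least 1 CPM (a gene's count scaled by the size of its library) over the 8 libraries were taken as members, out of 58787 genes in the table. The rule uses annotation and mean level, and it was set with earlier results of these data known. All 211 passed the filter on low counts and were tested. The cells were IMR32, an established human neuroblastoma line with amplified MYCN, labelled as wild type. One group received CR31B, a rocaglate that blocks the RNA helicase eIF4A, at its IC50, a dose given with no concentration, and the other received 0.1% DMSO, the vehicle, and both were taken at 6 h. Each group had 4 libraries of polyadenylated RNA, described as biological replicates. The study holds 1 line and 1 time point.

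Most ZNF genes of chromosome 19 encode proteins with a KRAB box at the amino terminus and a long row of C2H2 zinc fingers after it. The fingers read DNA, often in transposable elements, and the KRAB box recruits TRIM28 (KAP1), which brings the methyltransferase SETDB1, HP1 proteins and deacetylases to silence chromatin. The genes arose by tandem duplication and lie in clusters along the chromosome, so neighbours often resemble each other in sequence.

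The repeated unit of these genes is shown first, because it is the sequence the members have in common. Each line is 84 bases of coding sequence, read from GENCODE 29 transcripts. It starts at the first cysteine codon of the first finger with a strict spacing that is followed directly by the start of another. Any earlier finger of other spacing was passed over, so a line need not be the first finger of its gene. Capitals mark the 2 cysteine and 2 histidine codons that hold the zinc ion, and the bases after the last histidine codon are the linker to the next finger. ZNF420, ZNF569 and ZNF146 belong to one cluster, ZNF493 and ZNF43 to another, and ZNF507 stands alone.
ZNF420: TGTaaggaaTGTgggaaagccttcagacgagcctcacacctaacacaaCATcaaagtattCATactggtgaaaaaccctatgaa
ZNF569: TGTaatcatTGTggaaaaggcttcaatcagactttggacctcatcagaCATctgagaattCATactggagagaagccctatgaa
ZNF146: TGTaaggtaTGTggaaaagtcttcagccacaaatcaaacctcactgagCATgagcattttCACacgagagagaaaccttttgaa
ZNF493: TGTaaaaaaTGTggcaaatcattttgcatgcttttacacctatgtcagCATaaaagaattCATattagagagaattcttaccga
ZNF43: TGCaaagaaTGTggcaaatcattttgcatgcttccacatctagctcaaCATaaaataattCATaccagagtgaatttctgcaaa
ZNF507: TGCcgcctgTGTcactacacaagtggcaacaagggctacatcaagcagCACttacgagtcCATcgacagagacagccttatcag
The units of ZNF493 and ZNF43 were identical at 67 of 84 bases (79.8%), and those of ZNF420 and ZNF569 at 59 (70.2%). ZNF507 shared 34.5% to 40.5% of positions with the other 5. In the members as a whole the median number of finger matches was 12, from 0 in ZNF738 to 31 in ZNF91, and the KRAB pattern was found in 180 of 211.

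Total counts were 43687828 to 64715535 per library, and the members took 0.649% to 0.841% of them. Markers of sympathetic neuroblasts were detected in all 8 libraries, at levels that differed widely. MYCN was at 2300 to 2970 CPM and HAND2 at 661 to 1390 CPM. ISL1 was at 66.0 to 92.5 CPM, STMN2 at 21.0 to 46.8 CPM and TH at 1.77 to 3.03 CPM. Of the 11 markers of other cell types, PRRX1 and KRT18 were at 0 in every library, and COL1A1, at 16.6 to 30.6 CPM, was the highest, with the other 8 at 2.53 CPM or less. Replicate 1 of each group was sequenced paired-end and replicates 2, 3 and 4 single-end. The 2 replicate 1 libraries ran against their labels. The library labelled CR31B replicate 1 had a summed member level of 6426 CPM, beside 6360 to 6469 CPM in the single-end DMSO libraries. The library labelled DMSO replicate 1 had 8462 CPM, beside 8188 to 8383 CPM in the single-end CR31B libraries. The main counts and medians are therefore given for all 8 libraries as labelled and for the 6 single-end libraries. Many values of single genes and subsets below are given for the single-end libraries alone. With all 8 libraries no tested gene, member or other, passed the test. No label was changed.

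With all 8 libraries as labelled and sequencing layout in the model, none of the 211 members passed the test (edgeR quasi-likelihood, adjusted p under 0.05 by Benjamini-Hochberg), as was true of the 16518 genes tested, of which 0.0% were called. At an unadjusted p under 0.05 there was 1 member, ZNF433, against 205 genes overall (1.24%). The smallest adjusted p of a member was 0.707. DESeq2, limma voom and every other scaling and filter tried on the 8 libraries also called 0 members. The median log2 fold change of the members, CR31B over DMSO, was 0.134, beside 0.015 for the 11051 other protein-coding genes whose mean CPM lay within the members' range of 1.36 to 565 CPM, called genes of like CPM below.

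In the 6 single-end libraries 114 members rose and 8 fell with CR31B, and 89 did not pass the test (edgeR quasi-likelihood, Benjamini-Hochberg). The 122 called are 57.8% of members, where 41.3% of all tested genes and 52.9% of the genes of like CPM were called. Rises made up 54% of members, where 23.8% of all 16696 tested genes rose, and falls made up 3.79%, where 17.6% of all tested genes fell. Among the genes of like CPM, 3462 of 11051 rose (31.3%) and 2384 fell (21.6%), so the members differed from them more in direction than in the share called. The members' median log2 fold change was 0.255, that of the genes of like CPM 0.03 and that of all tested genes -0.007. The fold change was above 0 in 172 of 211 members (81.5%), where 49.3% of all tested genes were above 0. In bulk RNA, a change in the share of cells that hold a transcript and a change in its amount per cell cannot be told apart.

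The shift was broad and small. Of the 114 members that rose, 99 rose by more than 1.2-fold, 38 by more than 1.5-fold and 4 by more than 2-fold, and no member fell by more than 2-fold. In 133 members the 3 single-end CR31B libraries all lay above the 3 DMSO libraries, where 27.7% of tested genes showed that order. In 18 members they all lay below, where 24.4% of tested genes did. The difference was of like size in each single-end pair, with member medians of 0.237, 0.275 and 0.277 in log2 for replicates 2, 3 and 4. In replicate 1 the median was -0.25, and all 122 called members had the opposite sign there. The replicate 1 pair has 1 library per group, so its difference carries no test.

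**Figure D1:**
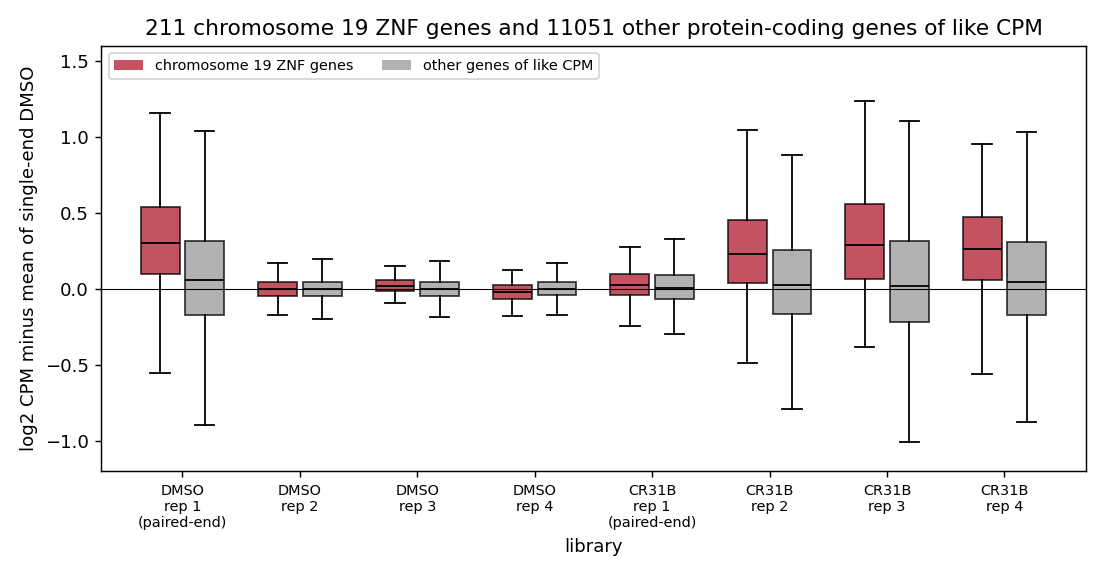
Box plots of log2 CPM in each library minus the average over DMSO replicates 2, 3 and 4, for the 211 chromosome 19 ZNF genes (red) and the 11051 other protein-coding genes of like CPM (grey). Boxes span the quartiles, lines inside are medians, whiskers reach the last value within the usual Tukey fences, and points beyond are not drawn. The ZNF medians are 0.233, 0.287 and 0.265 in the single-end CR31B libraries and 0.3 in the library labelled DMSO replicate 1, while the library labelled CR31B replicate 1 has 0.027.

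How many members fell depended on the scaling. With upper quartile scaling 90 members rose and 22 fell, and with total count scaling 94 rose and 19 fell. The split over all tested genes moved as well, from 3968 higher and 2933 lower under TMM to 3010 and 4509 under upper quartile scaling. The members' median stayed positive, at 0.161, while the median of the genes of like CPM went to -0.066.

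ZNF420, a KRAB protein known to bind p53 and restrain it, stood at 67.4, 69.4 and 67.5 CPM in CR31B replicates 2, 3 and 4 and at 30.2, 28.9 and 29.2 CPM in DMSO. The replicate 1 libraries had 33.6 CPM (labelled CR31B) and 79.1 CPM (labelled DMSO). The single-end groups did not overlap, and each replicate 1 library sat near the group of the other label. The rise was 1.21 ± 0.0504 in log2 (SE, as for each fold change below), or 2.32-fold, and the edgeR adjusted p was 5.07e-07. With all 8 libraries it was 0.65 ± 0.386, and the edgeR adjusted p was 0.707.

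ZNF433 had the largest rise in log2, 1.55 ± 0.148 (adjusted p = 2.25e-05, edgeR), at a low level. It was at 5.55, 7.73 and 6.14 CPM in the single-end CR31B libraries and at 2.1, 2.44 and 2.1 CPM in the DMSO libraries, with 3.23 and 6.3 CPM in the replicate 1 libraries labelled CR31B and DMSO. Exons of genes on the other strand cover 15.8% of its exonic bases, and the strand setting of the counts is not given in the sources used here, so its value is uncertain. ZNF507, a zinc finger gene without a KRAB pattern at chr19:32345594-32387667, was at 171, 196 and 185 CPM in CR31B and 81.8, 83.9 and 82.8 CPM in DMSO. The paired-end libraries stood at 81.7 CPM (labelled CR31B) and 185 CPM (labelled DMSO). Its rise was 1.15 ± 0.057 (adjusted p = 6.99e-07, edgeR).

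ZNF569 and ZNF570 are KRAB genes that lie head to head at chr19:37411155-37469275 and chr19:37467585-37488652. Their RefSeq promoter windows of 250 bases before the start, taken on opposite strands, share 173 bases. ZNF569, described as a repressor in MAP kinase reporter assays, had 75.1, 82.8 and 73.2 CPM in single-end CR31B and 39.1, 39.0 and 36.5 CPM in DMSO. ZNF570 had 39.3, 43.6 and 41.2 CPM against 21.8, 22.5 and 21.5 CPM. The pair rose together, by 1.01 ± 0.0613 and 0.92 ± 0.0609 in log2 (adjusted p = 1.67e-06 and 2.7e-06, edgeR), and in replicate 1 the differences were -0.979 and -0.96.

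The other members with the largest rises were ZNF350, ZNF441, ZNF382, ZNF30, ZNF470, ZNF134 and ZNF260, with log2 fold changes of 0.86 to 0.97. ZNF350 (ZBRK1), a KRAB repressor that binds BRCA1, had 11.6, 13.5 and 12.2 CPM against 6.61, 6.59 and 5.86 CPM, a rise of 0.97 ± 0.0953 (adjusted p = 2.74e-05, edgeR). ZNF382, a KRAB repressor studied as a tumour suppressor, had 35.1, 40.6 and 35.2 CPM against 19.7, 20.3 and 17.9 CPM, a rise of 0.94 ± 0.0786 (adjusted p = 9.47e-06, edgeR). ZNF260, which has fingers but no KRAB pattern and is known as a GATA4 partner in heart, had 252, 277 and 270 CPM against 141, 152 and 148 CPM, a rise of 0.86 ± 0.0548 (adjusted p = 2.22e-06, edgeR). In each of these genes the single-end groups did not overlap, and in replicate 1 the differences of the 7 were -0.885 to -1.15. In none of the 12 members with the largest rises did an alternative scaling, filter, tool, offset, block or left-out library end the call in the single-end libraries. With all 8 libraries their log2 fold changes were 0.43 to 0.95, and each had an adjusted p of 0.707 (edgeR).

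ZNF146 (OZF), which is made almost entirely of fingers and lacks a KRAB box, was the most abundant member, in CPM and per kb alike, at a mean of 565.5 CPM, or 150 CPM per kb of transcript, where the members' median was 5.93 CPM per kb. It stood at 725, 702 and 714 CPM in single-end CR31B and 437, 411 and 435 CPM in DMSO, with 429 and 703 CPM in the replicate 1 libraries labelled CR31B and DMSO. The means were 714 ± 11.4 and 428 ± 14.4 CPM (SD, n = 3 each), a rise of 0.74 ± 0.0499 in log2 (adjusted p = 2.83e-06, edgeR). Exons of the other strand cover 10.8% of its exonic bases, so its value is uncertain to that extent. The next highest in mean CPM were ZNF134, ZNF260, ZNF551 and ZNF507, and all 4 rose. ZNF551 changed least of them, from 129 ± 1.33 to 161 ± 3.92 CPM (SD, n = 3 each), a log2 fold change of 0.31 ± 0.0457 (adjusted p = 0.000364, edgeR).

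**Figure D2:**
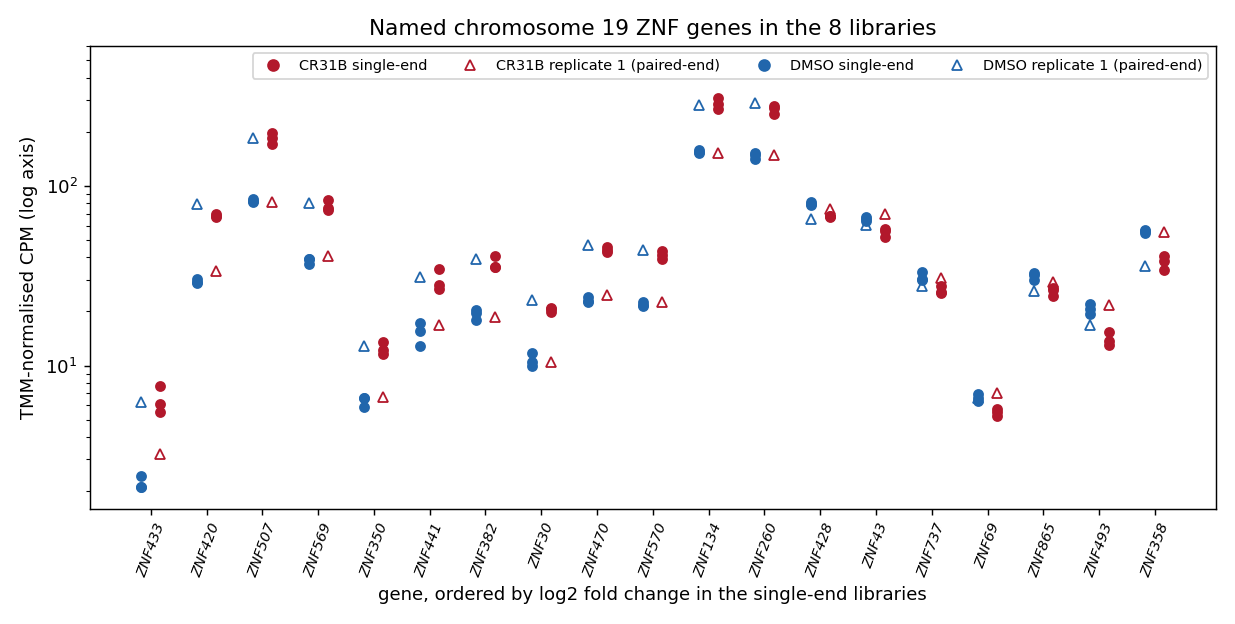
TMM-normalised CPM on a log axis for the 12 members with the largest rises and the 7 that fell with a mean of at least 2 CPM, ordered by log2 fold change. Filled points are single-end libraries and open triangles the paired-end replicate 1 libraries, with DMSO in blue and CR31B in red. The open triangle of each label lies near the filled points of the other label in genes with large changes, as in ZNF420, where the library labelled DMSO replicate 1 has 79.1 CPM and the single-end CR31B libraries 67.4 to 69.4 CPM.

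The 8 members that fell were ZNF358, ZNF493, ZNF524, ZNF865, ZNF69, ZNF737, ZNF43 and ZNF428, and their falls were smaller than the leading rises. ZNF358 had 40.7, 33.9 and 37.96 CPM in single-end CR31B and 56.9, 54.7 and 56.4 CPM in DMSO, with 55.2 and 35.9 CPM in the replicate 1 libraries labelled CR31B and DMSO. Its log2 fold change was -0.58 ± 0.0683 (adjusted p = 9.1e-05, edgeR), but same-strand exons of other genes cover 20.2% of its exonic bases, so its value is uncertain. ZNF493, a KRAB gene with 18 finger matches at chr19:21397119-21427573, had 15.3, 12.9 and 13.7 CPM against 21.9, 19.3 and 20.6 CPM. Its fold change was -0.56 ± 0.0846 (adjusted p = 0.00045, edgeR), and in replicate 1 the difference was 0.367.

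ZNF43, a KRAB gene with 19 finger matches, had 57.7, 51.8 and 56.2 CPM against 67.3, 65.2 and 63.3 CPM, a fold change of -0.24 ± 0.0566 (adjusted p = 0.00641, edgeR). ZNF737 and ZNF69 fell by 0.25 and 0.27 on the log2 scale (adjusted p = 0.0124 and 0.0484, edgeR). Both calls depended on single libraries. Leaving out DMSO replicate 3 gave an adjusted p of 0.0566 for ZNF737 and 0.145 for ZNF69, and CR31B replicate 4 gave 0.0542 and 0.111. ZNF69 lost its call under 7 of 16 alternatives. ZNF865, which has 20 finger matches and no KRAB pattern, had 26.2, 24.3 and 27.1 CPM against 32.6, 30.1 and 31.7 CPM, a fold change of -0.28 ± 0.0652 (adjusted p = 0.00588, edgeR). ZNF428 (-0.23 ± 0.0464, adjusted p = 0.00253, edgeR) had an adjusted p of 0.166 with offsets for GC content and length, and exons on the other strand cover 27.6% of its exonic bases.

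Members just inside the threshold were ZNF418 (mean 1.36 CPM), ZNF223 (1.58 CPM) and ZNF524 (1.66 CPM). Their log2 fold changes were 0.51 ± 0.209, 0.53 ± 0.154 and -0.45 ± 0.164, with adjusted p of 0.0732, 0.0192 and 0.049 (edgeR). ZNF223 shares 61.5% of its exonic 75-mers with transcripts of other genes, and its call was lost without DMSO replicate 2 or 3 (adjusted p = 0.0638 and 0.08, edgeR) and with DESeq2 (0.0509). ZNF418 passed under 3 of the 16 alternatives, among them the replicate block (0.52, adjusted p = 0.0291, edgeR). ZNF524 lost its call under 8 of the 16 alternatives, among them each left-out library except CR31B replicate 4. Just outside were ZNF878 (0.952 CPM), ZNF575 (0.863 CPM) and ZNF763 (0.727 CPM). Of the 35 genes under the threshold, 2 were at 0 in all 8 libraries.

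The members were next sorted by features that the choice had not used. The KRAB pattern was found in 180 members, of which 100 rose (55.6%) and 4 fell (2.22%), with a median log2 fold change of 0.258. Of the 31 members without it 14 rose (45.2%) and 4 fell (12.9%), with a median of 0.172. Of all tested genes 23.8% rose and 17.6% fell. The 2 sets also differed in base composition, with median transcript GC contents of 42.2% and 61.7%. With offsets for GC content and transcript length their medians were 0.165 and 0.192, so the order of the 2 sets turned. Under the labels as given the medians were 0.135 and 0.104. By number of finger matches, the median fold change was 0.173 in the 27 members with 0 to 7, 0.25 in the 68 with 8 to 11, 0.295 in the 66 with 12 to 15 and 0.247 in the 50 with 16 or more. Across the 211 members the correlation of fold change with finger number was weak (Pearson r = 0.105), and genes are not independent replicates.

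The shift was also present in members with little shared sequence. In 155 members, exons of other genes on either strand covered under 10% of exonic bases and under 10% of exonic 75-mers, the length of a read, occurred in transcripts of other genes. Of these 92 rose (59.4%) and 5 fell (3.23%), with a median of 0.309 (0.143 with all 8 libraries). In the other 56 members 22 rose (39.3%) and 3 fell (5.36%), with a median of 0.141. Of all tested genes 23.8% rose and 17.6% fell. The difference between the 2 sets was not tested. A read that fits several ZNF genes may have been dropped or assigned by the counting, which is not described in the sources used here.

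Among the genes of like CPM fold changes were higher in transcripts of low GC content, while among the members only the class of 50% GC and above had a lower median than the rest. In each GC class the members' median lay above that of the others. Across the genes of like CPM the fold change fell with GC content (Pearson r = -0.161, Spearman rho = -0.192, n = 11051 genes). Across the members these were -0.193 and -0.103 (n = 211), where genes share libraries and depth and no test was made. Below 40% GC the median log2 fold change was 0.305 in the 54 members and 0.142 in 1596 other genes. At 40 to 45% it was 0.247 against 0.084, at 45 to 50% 0.281 against 0.04, and at 50% and above 0.144 in the 28 members against -0.035. With offsets for GC content and length, 94 members rose (44.5%) and 18 fell (8.53%), and 93 of the 114 rises remained. The median was 0.176, beside -0.015 for the genes of like CPM, of which 25.6% rose and 24.5% fell. Of all tested genes 19.9% rose and 19.3% fell with these offsets. Adding the replicate number to those offsets gave 104 rises (49.3%) and 26 falls (12.3%). Of the genes of like CPM 30.8% rose and 31.8% fell in that fit. The 28 GC-rich members held 9 that rose, with ZNF574 at 0.83, ZNF584 at 0.60 and ZNF526 at 0.58 the largest, and 4 of the 8 that fell, namely ZNF358, ZNF428, ZNF524 and ZNF865. The rises were 32.1% of the 28 and the falls 14.3%, where 23.9% and 25.7% of the other genes of that class rose and fell. ZNF574, ZNF584 and ZNF526 were named after their values were seen.

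**Figure D3:**
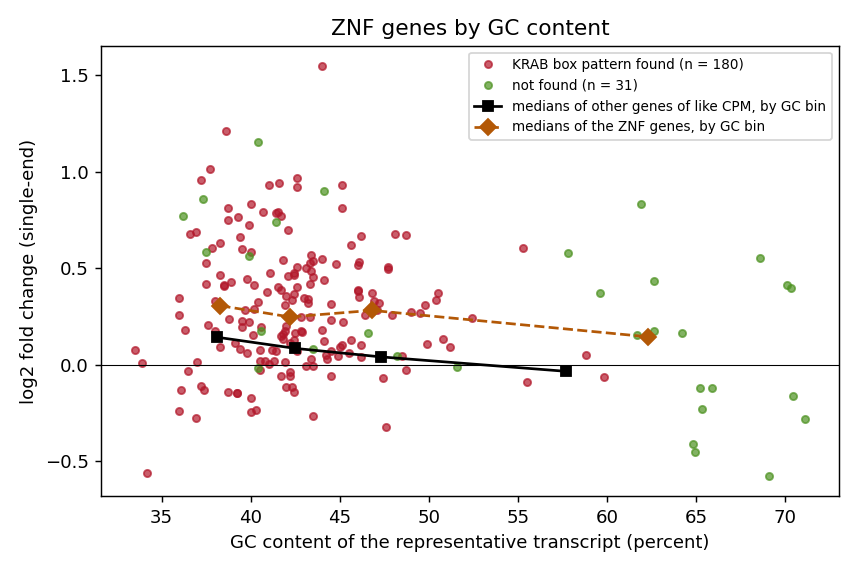
Log2 fold change, CR31B over DMSO in the single-end libraries, against GC content of the representative transcript in percent, 1 point per member. Red points are the 180 members with a KRAB pattern and green points the 31 without. Diamonds are the medians of the ZNF genes and squares those of other genes of like CPM in 4 GC classes. The diamonds lie above the squares in every class, at 0.305 against 0.142 below 40% and 0.144 against -0.035 at 50% and above.

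The same order held at each level of expression. Members of 20 CPM and more numbered 112, of which 67 rose (59.8%) and 5 fell (4.46%), with a median of 0.263. Of the 7621 other genes of that level 35.2% rose and 23.9% fell, and their median was 0.039. At 10 to 20 CPM the median was 0.264 in 44 members and 0.004 in other genes, at 5 to 10 CPM it was 0.222 in 33 members against 0.017, and at 2 to 5 CPM 0.166 in 17 members against 0.012. The 5 members between 1 and 2 CPM had a median of 0.515 against -0.044, and 1 of them rose and 1 fell. Of the other genes of that level 12.2% rose and 8.04% fell.

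The members' response differed along the chromosome, with cluster medians from -0.008 to 0.633 among clusters of at least 4 members, and the differences between clusters were not tested. Chromosome 19 ZNF genes less than 1 Mb apart were joined, which gave 16 clusters or single genes, numbered from the short-arm end. Cluster 9, from ZNF565 to ZNF573 at chr19:36182060-37817300, holds 26 ZNF genes, all of them members. Of these 23 rose (88.5%, where 23.8% of all tested genes rose) and none fell, with a median log2 fold change of 0.633. The medians of the pairs were 0.546, 0.676 and 0.661 for replicates 2, 3 and 4 and -0.651 for replicate 1. It contains ZNF420, ZNF569, ZNF570, ZNF382, ZNF260 and ZNF146, and the 3 members that did not pass the test were ZNF565 (0.09), ZNF850 (0.17) and ZNF573 (0.08). With GC and length offsets 19 rose (73.1%, where 19.9% of all tested genes rose), none fell and the median was 0.462. With all 8 libraries no member of the cluster passed the test, and the median was 0.33.

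The 4 other tested protein-coding genes within cluster 9 are also zinc finger genes, under other names, and 3 rose while 1 fell. ZFP30 rose by 1.42 ± 0.0738 (adjusted p = 7.81e-07, edgeR) and ZFP82 by 0.48 ± 0.0567 (adjusted p = 8.5e-05, edgeR). ZFP14 rose by 0.18 ± 0.0636 (adjusted p = 0.0447, edgeR), and HKR1 fell, at -0.29 ± 0.0716 (adjusted p = 0.00757, edgeR). Cluster 9 and cluster 5 were singled out after their values were seen.

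Cluster 5, from ZNF101 to ZNF254 at chr19:19668796-24129961, lay at the other end of the range. Of its 37 ZNF genes 23 were members, of which 4 rose (17.4%), 3 fell (13%) and 16 did not pass the test, with a median of -0.008. These values were near those of all tested genes, of which 23.8% rose and 17.6% fell, with a median of -0.007. The medians of the pairs were -0.043, -0.063 and 0.043 for replicates 2, 3 and 4 and 0.027 for replicate 1, and the median with all 8 libraries was -0.049. ZNF714 rose most, by 0.59 ± 0.0456 (adjusted p = 6.41e-06, edgeR), and the others that rose were ZNF724, ZNF430 and ZNF675, at 0.28, 0.21 and 0.18. The falls were those of ZNF493, ZNF737 and ZNF43. The cluster also holds ZNF91 and ZNF93, known as repressors of SVA and LINE-1 retrotransposons, which did not pass the test and had fold changes of 0.01 ± 0.0595 and -0.23 ± 0.106. ZNF91, ZNF93 and the members of both clusters outside the leading rises and falls were named after their values were seen.

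The count of falls in cluster 5 rested on the setting. It was 9, with 2 rises and a median of -0.145, under GC and length offsets, and 8, with 1 rise and a median of -0.103, under upper quartile scaling. With the replicate number in the model 5 rose and 6 fell, and with the offsets and the replicate number together 3 rose and 12 fell. The median was negative in each of these, and the median of cluster 9 lay between 0.462 and 0.632 in the same settings. The genes of like CPM moved with the setting as well. In the order of the settings above 24.5%, 33.3%, 27.8% and 31.8% of them fell, where 21.6% fell in the main fit. Their rises were 25.6%, 23.8%, 36.6% and 30.8%, where 31.3% rose in the main fit. Clusters 5 and 9 had like transcript GC contents, with medians of 37.5% and 39.4%.

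The other clusters of at least 4 members lay between them, where 23.8% of all tested genes rose and 17.6% fell. Cluster 2 (13 members, 8 rose and 1 fell) had a median of 0.38, and cluster 3 (17 members, 9 and 1) had 0.335. Cluster 16, the largest and next to the long-arm end, had 55 members, of which 29 rose and 2 fell, with a median of 0.273. Cluster 15, with 37 members from ZNF175 to ZNF331, had 18 that rose and none that fell and a median of 0.194, and cluster 12 (22 members, 9 and 1) had 0.171. The other tested protein-coding genes that lie within cluster 16 numbered 23, some of them zinc finger genes under other symbols, and had a median of 0.004. The 25 within cluster 2 had a median of -0.001.

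**Figure D4:**
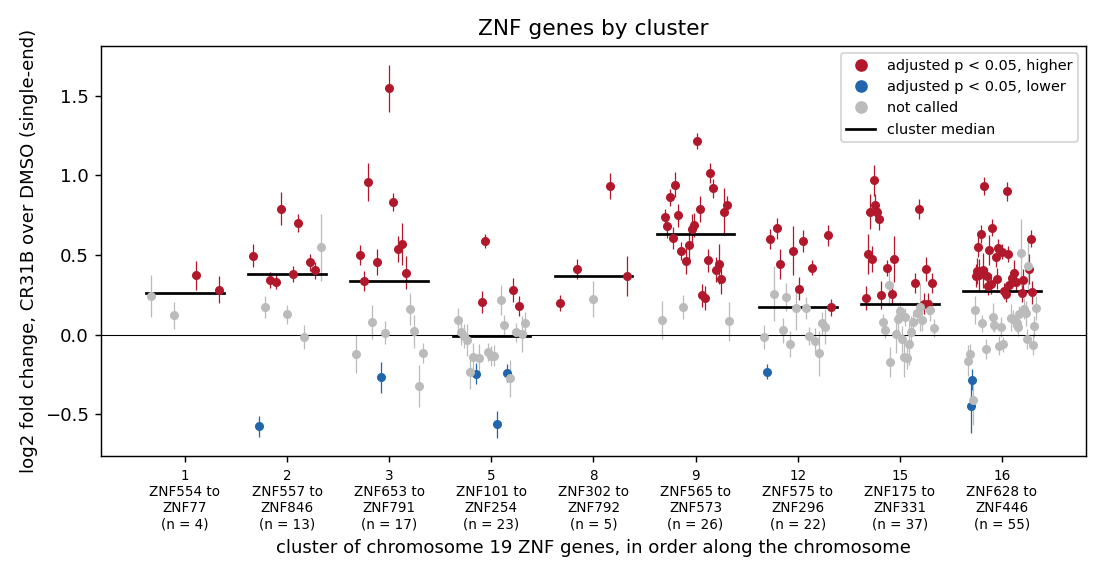
Log2 fold change, CR31B over DMSO in the single-end libraries, of each member in the clusters with at least 4 members, ordered along chromosome 19. Bars are standard errors, colour marks the call (red higher, blue lower, grey not called) and black lines are cluster medians. All 26 points of cluster 9 lie above 0 around a median of 0.633, and the 23 of cluster 5 lie on both sides of its median of -0.008.

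Promoter letters were examined because members of a cluster had moved alike. RefSeq (GRCh38.p14) gave a start for 186 of 211 members, and the 250 bases before it were searched on both strands. The motifs were the CCAAT box (letters CCAAT), the GC box (letters GGGCGG), the ETS core (letters CCGGAAG), the YY1 motif (letters AAGATGGC) and the TATA box (letters TATAAA). The cyclic AMP response element (letters TGACGTCA), the ATF and CEBP composite element (letters TGATGNAAT) and the NRF1 and ZNF143 motifs were searched as well, and each was found in at most 2.69% of member windows. No motif contains another, and matches were counted once per window. Windows of 5 members are shown, 3 of them from genes of cluster 5 that fell and 2 from members that rose elsewhere. The 2 have no CCAAT box, but ZNF433, ZNF350, ZNF441 and ZNF260, also among the leading rises, have one. Capitals mark every match to the CCAAT box, the GC box and the ETS core on either strand. An ETS core on the other strand reads CTTCCGG here, and a GC box on the other strand reads CCGCCC. The windows are chr19:21396883-21397132 (ZNF493, plus strand), chr19:21836183-21836432 (ZNF43, minus), chr19:20565782-20566031 (ZNF737, minus), chr19:32345360-32345609 (ZNF507, plus) and chr19:57613992-57614241 (ZNF134, plus).
ZNF493: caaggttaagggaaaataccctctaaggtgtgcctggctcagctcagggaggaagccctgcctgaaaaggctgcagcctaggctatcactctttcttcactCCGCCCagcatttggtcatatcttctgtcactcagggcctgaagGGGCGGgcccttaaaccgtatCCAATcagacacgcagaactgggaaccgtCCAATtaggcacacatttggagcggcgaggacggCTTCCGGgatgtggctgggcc
ZNF43: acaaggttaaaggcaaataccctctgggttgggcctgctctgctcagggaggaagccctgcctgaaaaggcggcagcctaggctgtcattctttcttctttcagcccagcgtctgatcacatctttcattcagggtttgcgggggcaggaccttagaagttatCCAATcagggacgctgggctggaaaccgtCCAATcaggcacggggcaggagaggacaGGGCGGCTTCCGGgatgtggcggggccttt
ZNF737: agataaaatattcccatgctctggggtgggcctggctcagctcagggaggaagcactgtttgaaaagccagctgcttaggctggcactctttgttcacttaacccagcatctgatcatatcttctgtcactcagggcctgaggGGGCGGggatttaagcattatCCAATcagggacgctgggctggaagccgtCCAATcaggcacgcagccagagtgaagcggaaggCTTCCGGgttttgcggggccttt
ZNF507: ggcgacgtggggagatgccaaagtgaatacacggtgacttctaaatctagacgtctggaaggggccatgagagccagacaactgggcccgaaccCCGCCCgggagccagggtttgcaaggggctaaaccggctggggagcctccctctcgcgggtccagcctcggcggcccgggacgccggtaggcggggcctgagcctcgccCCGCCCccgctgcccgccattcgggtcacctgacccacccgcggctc
ZNF134: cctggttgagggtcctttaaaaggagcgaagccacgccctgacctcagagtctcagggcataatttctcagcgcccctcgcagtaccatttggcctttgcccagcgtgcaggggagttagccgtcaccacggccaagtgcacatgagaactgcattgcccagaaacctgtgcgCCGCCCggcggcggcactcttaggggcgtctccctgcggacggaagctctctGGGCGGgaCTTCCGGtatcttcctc
In ZNF493, ZNF43 and ZNF737 a pair of CCAAT boxes is followed by CTTCCGG near the start, and the window of ZNF134 holds CTTCCGG there too, without the CCAAT boxes. CCAAT was present in 48.9% of the 186 member windows and 34.5% of 14896 windows of protein-coding genes. It was in 20 of 20 windows of cluster 5 and in 4 of 24 of cluster 9 (16.7%). CCGGAAG was in 32.3% of member windows, 12% of all windows, 60% in cluster 5 and 20.8% in cluster 9. GGGCGG was in 62.4% of member windows, 56.9% of all windows, 75% in cluster 5 and 29.2% in cluster 9. AAGATGGC, which is rare, was in 4.84% of member windows and 1.4% of all, and TATAAA in 2.15% and 8.97%. Windows of a cluster share descent and are not independent, and a match is not a site of binding. Between the 103 members that rose and the 83 others with a window, CCAAT was in 42.7% and 56.6%. In the same order GGGCGG was in 55.3% and 71.1%, CCGGAAG in 29.1% and 36.1%, AAGATGGC in 6.8% and 2.41% and TATAAA in 1.94% and 2.41%. Most members of cluster 5, where every window had CCAAT, are among the others. None of these differences was tested.

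Zinc finger genes elsewhere in the genome had a like median and share of rises, with a larger share of falls. Of 222 ZNF genes of other chromosomes with a mean of at least 1 CPM, 120 rose (54.1%) and 25 fell (11.3%) in the single-end libraries. Of the members 54% rose and 3.79% fell, and of all tested genes 23.8% and 17.6%. The median of the 222 was 0.229, which is 0.027 below that of the chromosome 19 members. The other protein-coding genes of chromosome 19 had no such shift. Of 604 of like CPM, 105 rose (17.4%) and 184 fell (30.5%), and the median was -0.077. Neither difference from the members was tested. The medians over all 8 libraries were 0.111 and -0.039. The 604 genes had a median GC content of 61.3%, beside 42.4% in the members, and with GC and length offsets their median was -0.052.

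A list of 44 corepressor and heterochromatin genes, called partners here, was read as well, and 43 were tested. It is wider than the TRIM28 route described above. The RNA levels of these genes moved in both directions. With all 8 libraries none passed the test, and their median was -0.018. In the single-end libraries 14 rose, 9 fell and 20 did not pass the test, with a median of -0.008, beside -0.007 for all tested genes. The rises are 32.6% of the list and the falls 20.9%, where 23.8% and 17.6% of all tested genes rose and fell. TRIM28, the corepressor itself, was at 1344, 1169 and 1327 CPM in single-end CR31B and 1049, 1073 and 1157 CPM in DMSO, with 1145 and 1385 CPM in the replicate 1 libraries labelled CR31B and DMSO. Its rise was 0.23 ± 0.0678 in log2 (adjusted p = 0.0201, edgeR), and the call was lost under upper quartile scaling (adjusted p = 0.0792) and without CR31B replicate 2 or 4 or DMSO replicate 2 or 3 (0.0629 to 0.0734).

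SETDB1, the histone methyltransferase that TRIM28 recruits, had 105, 127 and 120 CPM against 75.8, 88.6 and 82.7 CPM, and the replicate 1 libraries labelled CR31B and DMSO had 80.9 and 113 CPM. It rose by 0.51 ± 0.0778 (adjusted p = 0.000472, edgeR), with 13.4% of its exonic bases under exons of the other strand. MTA2, a subunit of the NuRD deacetylase complex, rose by 0.86 ± 0.052, from 158 ± 6.96 to 287 ± 7.91 CPM (SD, n = 3 each, adjusted p = 1.64e-06, edgeR). CHD4, the NuRD remodeller, rose by 1.1 ± 0.13 (adjusted p = 8.95e-05, edgeR), but same-strand exons of another gene cover 46.9% of its exonic bases and it was counted at 5.48 to 15.8 CPM, so its value is uncertain. MORC2, an ATPase that works with the HUSH silencing complex, rose by 0.8 ± 0.089 (adjusted p = 6.01e-05, edgeR), with 25.8% of its exonic bases under exons of the other strand.

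The largest falls in the list were those of SUMO3, MTA1, SUMO2 and CBX1. SUMO3 and SUMO2 encode the small modifier that TRIM28 uses to draw in SETDB1, and fell by 0.48 and 0.35 on the log2 scale (adjusted p = 0.000249 and 0.000431, edgeR). CBX1, the HP1 beta protein that binds methylated histone H3, went from 706 ± 11.4 to 555 ± 32.6 CPM (SD, n = 3 each), a log2 fold change of -0.35 ± 0.0556 (adjusted p = 0.000683, edgeR). MTA1, the NuRD paralog of MTA2, had -0.36 ± 0.0606 (adjusted p = 0.000869, edgeR), so these paralogs moved in opposite directions. Of the HUSH subunits, named after their values were seen, FAM208A (TASOR) and MPHOSPH8 rose by 0.39 and 0.42 (adjusted p = 0.000105 and 0.000175, edgeR), and PPHLN1 was at -0.01 (adjusted p = 0.884, edgeR). With GC and length offsets 11 of the 43 rose (25.6%) and 15 fell (34.9%), where 19.9% and 19.3% of all tested genes rose and fell. In replicate 1 the differences of the 9 genes of the list named by rank or as TRIM28 and SETDB1 all had the opposite sign.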

How the data were processed

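Polyadenylated RNA of IMR32 cells was sequenced in 4 CR31B and 4 DMSO libraries. The authors deposited raw counts per Ensembl gene, unnormalised. The submitters' processing notes name GRCh38, FastQC 0.11.7, STAR 2.7.2b, edgeR 3.36.0 and limma 3.50.3 with no role. The counting tool, strand setting and annotation are not given in the sources used here. The members and lists, the motifs included, were chosen with earlier results of these data known.

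Of 58787 identifiers 58515 were in GENCODE 29, which gave positions, transcripts and 19903 protein-coding genes. Counts were tested in R 4.3.3 with edgeR 4.0.16 (filterByExpr, TMM, glmQLFit, glmQLFTest, two-sided) over all genes, Benjamini-Hochberg adjustment and a threshold of 0.05. Layout was a term with 8 libraries, and the 6 single-end libraries were fitted alone. Values per library are TMM-normalised CPM, and pair differences are in log2 CPM (prior count 1). Total counts were 43687828 to 64715535 per library, and depth bears on counting error only. Medians over members are descriptions with no test.

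Named were, of members with an adjusted p under 0.05, a mean CPM of 2 or more and 1 direction in all single-end pairs, up to 12 per direction by fold change, then the 5 highest members, 3 on each side of the threshold, and 4 partners per direction with TRIM28 and SETDB1. KRAB boxes and C2H2 fingers were found by pattern in translated GENCODE coding sequences, since RefSeq proteins were not used here. Fingers were counted in the transcript with the longest coding sequence. KRAB boxes were sought in every protein-coding transcript of the gene, in all forward reading frames. Shared 75-mers were sought in GENCODE transcripts only. Where RefSeq gave several starts (33 members) the first listed was used.

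Deviations from group means correlated between same-numbered single-end libraries by 0.208 in replicate 2, 0.388 in replicate 3 and 0.157 in replicate 4. Correlations between libraries of different number are not given beside them. The main single-end fit had no replicate term, and the replicate block was run as an alternative. Same-numbered libraries are called pairs where their differences are given. Alternatives were other tools (DESeq2 1.42.0, voom of limma 3.58.1), scalings (RLE, total count, upper quartile) and filters, replicate number as a block, offsets from a loess on transcript GC and length, and leaving out libraries. The scripts were tested on simulated data.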

Additional observations from a re-analysis of the deposited data

Results flagged for a closer look

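In groups of 4 libraries, a library was taken as standing apart where its gap to the nearest other library, divided by the whole range of the group, passed Dixon's critical value for 4 samples. Of 50 groups examined, the 2 treatment groups of each named member and of the member median, 24 had such a library, where 1 in 20 (2.5 groups) would by chance, and in all 24 it was the paired-end replicate 1 library. The groups are not independent, since they are the same 8 libraries. Most of the named members were also chosen for a large change with 1 direction in all single-end pairs. The count by chance is therefore no fair measure for them, and no conclusion is drawn from the comparison.

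Among the libraries labelled CR31B, replicate 1 stood apart in ZNF420 (ratio 0.961), ZNF146 (0.939), ZNF30 (0.927), ZNF470 (0.91), ZNF507 (0.847), ZNF260 (0.845), ZNF570 (0.844) and ZNF551 (0.841), where it was the lowest. It was the highest in ZNF428 (0.844), a member that fell in the single-end libraries.

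Among the libraries labelled DMSO, replicate 1 was the highest in ZNF507 (0.968), ZNF420 (0.958), ZNF134 (0.939), ZNF570 (0.934), ZNF551 (0.927), ZNF569 (0.914), ZNF470 (0.91), ZNF260 (0.895), ZNF146 (0.885), ZNF433 (0.863), ZNF350 (0.846) and ZNF382 (0.836), and in the median over the members (0.875). It was the lowest in ZNF358 (0.913) and ZNF524 (0.904). Layout, sequencing batch and an exchange of labels in replicate 1 cannot be told apart with 1 library per group.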

How the results depend on the processing

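With 8 libraries the count of called members stayed 0 under every scaling, filter and tool, the replicate block (median 0.132) and the GC offsets. It became 122 without replicate 1 in both groups, and ranged from 0 to 122 when single libraries were left out, with 122 on leaving out either replicate 1 library, since the layout term then absorbs the other. In the single-end libraries the main fit had no replicate term, and the replicate block gave 129 rises and 13 falls in place of 114 and 8. With the block 36.6% of the genes of like CPM rose and 27.8% fell, in place of 31.3% and 21.6%. The members' falls were 22 under upper quartile scaling, 19 under total count scaling and 15 under the stricter filter. They were 18 with GC and length offsets and 26 with those and the replicate block. Falls among the genes of like CPM were 33.3% under upper quartile and 31% under total count scaling. With the offsets they were 24.5%, and with offsets and block 31.8%. Under the stricter filter 25.8% of all tested genes fell, in place of 17.6%. The members' median of 0.255 became, in the order of the members' falls, 0.161, 0.178, 0.22, 0.176 and 0.176. In members with little sharing it was 0.309. The difference from genes of like CPM, 0.226, became 0.191 with the offsets, 0.192 with offsets and block, and 0.027 against ZNF genes of other chromosomes. Leaving out single libraries gave medians of 0.231 to 0.289, differences of 0.196 to 0.262 and 5 to 9 falls, with 5 without DMSO replicate 3. No named member changed direction. Of the 5 members between 1 and 2 CPM, 2 were called. The causes of these changes were not tested.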

Other observations

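Some zinc finger genes of the same clusters carry other symbols and were not members. In cluster 16, from ZNF628 to ZNF446, PEG3, a zinc finger gene expressed from the paternal allele, had a log2 fold change of 0.94 ± 0.201 in the single-end libraries (adjusted p = 0.00368, edgeR) at a mean of 1.33 CPM. ZSCAN18 rose by 0.57 ± 0.0789 (adjusted p = 0.000268, edgeR), ZIK1 by 0.27 ± 0.045 (adjusted p = 0.000815, edgeR) and ZSCAN22 by 0.18 ± 0.0583 (adjusted p = 0.0275, edgeR). ZFP28 (0.17) and ZSCAN5A (0.02) did not pass the test. In replicate 1 the differences were -1.22 for PEG3, -0.59 for ZSCAN18 and -0.3 for ZIK1.

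Genes of other function between the ZNF genes moved in both directions. In cluster 12, SMG9, a regulator of nonsense-mediated decay, rose by 0.81 ± 0.0663 (adjusted p = 8.02e-06, edgeR) and the adhesion molecule NECTIN2 by 0.85 ± 0.114 (adjusted p = 0.000214, edgeR). In the same cluster CADM4 had -0.67 ± 0.0949 (adjusted p = 0.000305, edgeR), IRGQ -0.53 ± 0.0657 (adjusted p = 0.000126, edgeR) and CLPTM1 -0.45 ± 0.0774 (adjusted p = 0.00106, edgeR). These genes were named after their values were seen.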
